A study of Homo sapiens with 12 samples.

Results

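The homologous recombination and Fanconi genes examined here are 37 genes picked by symbol from a table of 58735 genes, and all 37 were found. They were followed in TFK1, a human cholangiocarcinoma (bile duct cancer) cell line, in 12 RNA-seq libraries that form 4 groups of 3 biological replicates. Control cells were untreated, radiation cells received 6 Gy, nab-paclitaxel cells received 1.62 ng/ml of this albumin-bound taxane, and combination cells received both. All groups came from the same wild-type line, and RNA was taken 24 h after treatment. The study's stated question was how nab-paclitaxel makes cholangiocarcinoma cells more sensitive to radiation.

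Homologous recombination repairs a DNA double-strand break by copying an intact sister chromatid. The broken ends are first resected to single strands by the MRE11-RAD50-NBN complex, RBBP8 (CtIP) and EXO1. BRCA1, BARD1, PALB2, BRCA2 and the recombinase paralogs then load the recombinase onto the strand, and helicases and nucleases take apart the joint molecules that result. The Fanconi pathway removes crosslinks between DNA strands: a core complex with the conjugating enzyme UBE2T ubiquitinates FANCD2 and FANCI, which direct nucleases and recombination proteins to the lesion. Many of these genes are transcribed mainly in S and G2 phase, when a sister chromatid is present.

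Levels are given as FPKM, fragments counted relative to gene length and to library size, which sets genes of different length on one scale. The mean over the 12 libraries reached 1 FPKM, the minimum for testing, in 34 of the 37 genes. Among these 34, mean levels ran from 17.5 FPKM for UBE2T, 15.1 for RBBP8, 13.3 for NBN and 12.8 for RECQL4 down to 1.24 for FANCM and 1.00 for RAD51D. Most members were thus expressed at a few FPKM, with BRCA1 at 3.05 and BRCA2 at 1.65. Under the minimum were RAD54B, a translocase related to RAD54L, with 0.85 FPKM, RAD50, the coiled-coil subunit of the MRE11 complex, with 0.66, and the paralog RAD51B with 0.42. These 3 were not tested. RAD54B lay at 1.02 to 1.58 FPKM in control, 0.569 to 0.666 in radiation, 0.763 to 1.03 in nab-paclitaxel and 0.477 to 0.711 in the combination, so every irradiated library was below every unirradiated one.

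Libraries held 14840283 to 17992242 fragments, as recovered from the FPKM values and gene lengths. The least covered tested member was FANCB, with 41 to 132 fragments per library, and NBN had 853 to 1888. Within the groups, control 2, nab-paclitaxel 1 and combination 2 stood apart: over all tested genes their deviations from their group means correlated with each other (r = 0.46, 0.54 and 0.33, across genes). Control 2 was the highest control for 20 of the 34 members (42.6% of all tested genes), nab-paclitaxel 1 was highest in its group for 17 (44.8%) and combination 2 for 21 (41.2%). Of 8 markers of bile duct epithelium 6 reached 1 FPKM, led by the keratin KRT19. None of 8 macrophage markers, none of 8 lymphocyte and endothelial markers and 1 of 8 fibroblast markers (COL1A1, 5.70 FPKM) reached 1 FPKM. In a bulk library fewer cells in a given cycle phase and less RNA per cell cannot be told apart.

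The promoters of the 4 members with the smallest p in the comparison of radiation with control are shown because these genes were low together in the irradiated libraries. Each is the RefSeq window from 250 bases before to 50 after the transcription start in GRCh38.p14, written 5′ to 3′ on the gene's strand. Capitals mark matches, on either strand, to an E2F word (TTTCCCGC, TTTGGCGC, TTTCGCGC or TTTGCCGC) or to CCAAT, the core bound by NF-Y. The windows are chr17:43125315-43125614 (minus strand) for BRCA1, chr3:10026187-10026486 (plus) for FANCD2, chr1:46247513-46247812 (plus) for RAD54L and chr16:89816598-89816897 (minus) for FANCA.
BRCA1: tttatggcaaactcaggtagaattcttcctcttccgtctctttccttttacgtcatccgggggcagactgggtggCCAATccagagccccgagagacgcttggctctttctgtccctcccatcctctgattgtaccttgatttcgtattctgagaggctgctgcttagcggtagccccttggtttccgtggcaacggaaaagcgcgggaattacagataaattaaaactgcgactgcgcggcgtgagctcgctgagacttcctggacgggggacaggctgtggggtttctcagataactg
FANCD2: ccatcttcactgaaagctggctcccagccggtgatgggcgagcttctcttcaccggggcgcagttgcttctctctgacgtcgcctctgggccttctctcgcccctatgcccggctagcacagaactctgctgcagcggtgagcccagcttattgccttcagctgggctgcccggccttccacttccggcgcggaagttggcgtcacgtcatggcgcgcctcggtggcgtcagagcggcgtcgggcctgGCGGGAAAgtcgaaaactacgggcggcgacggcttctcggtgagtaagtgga
RAD54L: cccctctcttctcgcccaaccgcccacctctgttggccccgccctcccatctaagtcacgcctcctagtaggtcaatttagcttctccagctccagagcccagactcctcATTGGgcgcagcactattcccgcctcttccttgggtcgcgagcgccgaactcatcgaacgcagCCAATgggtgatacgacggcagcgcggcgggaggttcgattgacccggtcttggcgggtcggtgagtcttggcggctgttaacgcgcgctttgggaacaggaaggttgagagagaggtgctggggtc
FANCA: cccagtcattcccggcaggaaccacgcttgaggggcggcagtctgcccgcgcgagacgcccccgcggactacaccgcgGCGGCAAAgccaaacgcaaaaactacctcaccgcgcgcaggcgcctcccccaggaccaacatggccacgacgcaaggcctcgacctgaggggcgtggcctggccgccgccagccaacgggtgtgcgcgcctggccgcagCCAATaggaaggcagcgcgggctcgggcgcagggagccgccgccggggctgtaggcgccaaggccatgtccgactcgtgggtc

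FANCD2 carried 1 E2F match close to the start, FANCA 1 E2F match and 1 CCAAT, RAD54L 2 CCAAT matches and BRCA1 1. RefSeq windows were matched for 31 of the 37 members. The unmatched members were NBN, RECQL4, WRN, RAD54B, FANCI and RMI2. Of the 15 windows of members that fell in the combination, 5 (33.3%) held an E2F word, against 1 of 23 windows (4.35%) of tested members that fell neither there nor with radiation, and 667 of 13336 windows (5%) of all tested genes. CCAAT was found in 7 of 15 (46.7%), 7 of 23 (30.4%) and 35% of these windows. The cell-cycle homology word (TTTGAA or TTCGAA) was found in 1 of 15 (6.67%), 2 of 23 (8.7%) and 11.2%. RMI1, EXO1, BRCA1 and RAD54L, which fell in the combination, each have more than 1 window, as do some other members. The windows of RAD54L overlap and hold the same CCAAT matches. The percentages are thus shares of windows, not of members. The motifs were searched separately, so that a base could count for more than 1 of them. These are matches of letters, described without a test.

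At 24 h after 6 Gy, 11 of the 34 tested members had fallen against control and 0 had risen, where 3.45% of all 13609 tested genes fell and 2.48% rose. A member is said to have risen or fallen when limma's test on log2(FPKM + 1), adjusted by Benjamini-Hochberg over all tested genes of the comparison, gave a p under 0.05. Fold changes are on that log2 scale with their standard error (±), and this scale understates the change of genes at a few FPKM. The median member stood at -0.32 and the median of all tested genes at -0.02; 32 members were below 0 and 2 above. In 21 members all 3 radiation libraries lay below all 3 controls and in 0 above them, patterns found in 16% and 12.4% of all tested genes. The 11 that fell were BRCA1, BRCA2, XRCC2, RAD54L, EXO1, BLM, RECQL4, FANCA, FANCD2, FANCI and BRIP1.

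Nab-paclitaxel alone moved 2 members: BRCA2 fell and EME1 rose, where 3.41% of all tested genes fell and 5.41% rose. The median member stood at -0.05 and the median of all genes at 0.04. All 3 drug libraries lay below all controls in 5 members and above them in 2, patterns found in 10.6% and 15.5% of all tested genes. In the combination 14 members had fallen against control and 0 had risen, where 10.6% of all tested genes fell and 12.2% rose. These were the same 11 genes as with radiation, plus NBN, RMI1 and FANCB. The median member stood at -0.39, with all genes at 0.0036, and the 2 comparisons share their control libraries. The combination libraries lay below all controls in 19 members and above them in 1, where 17.8% and 19.5% of all tested genes did so. Summed over all 37 members, the level was 181.6 to 218.3 FPKM in control, 134.7 to 147.1 in radiation, 168.0 to 211.7 in nab-paclitaxel and 133.0 to 148.0 in the combination. The sums of both irradiated groups thus lay below those of both unirradiated groups, and the control and nab-paclitaxel ranges overlapped.

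**Figure D1:**
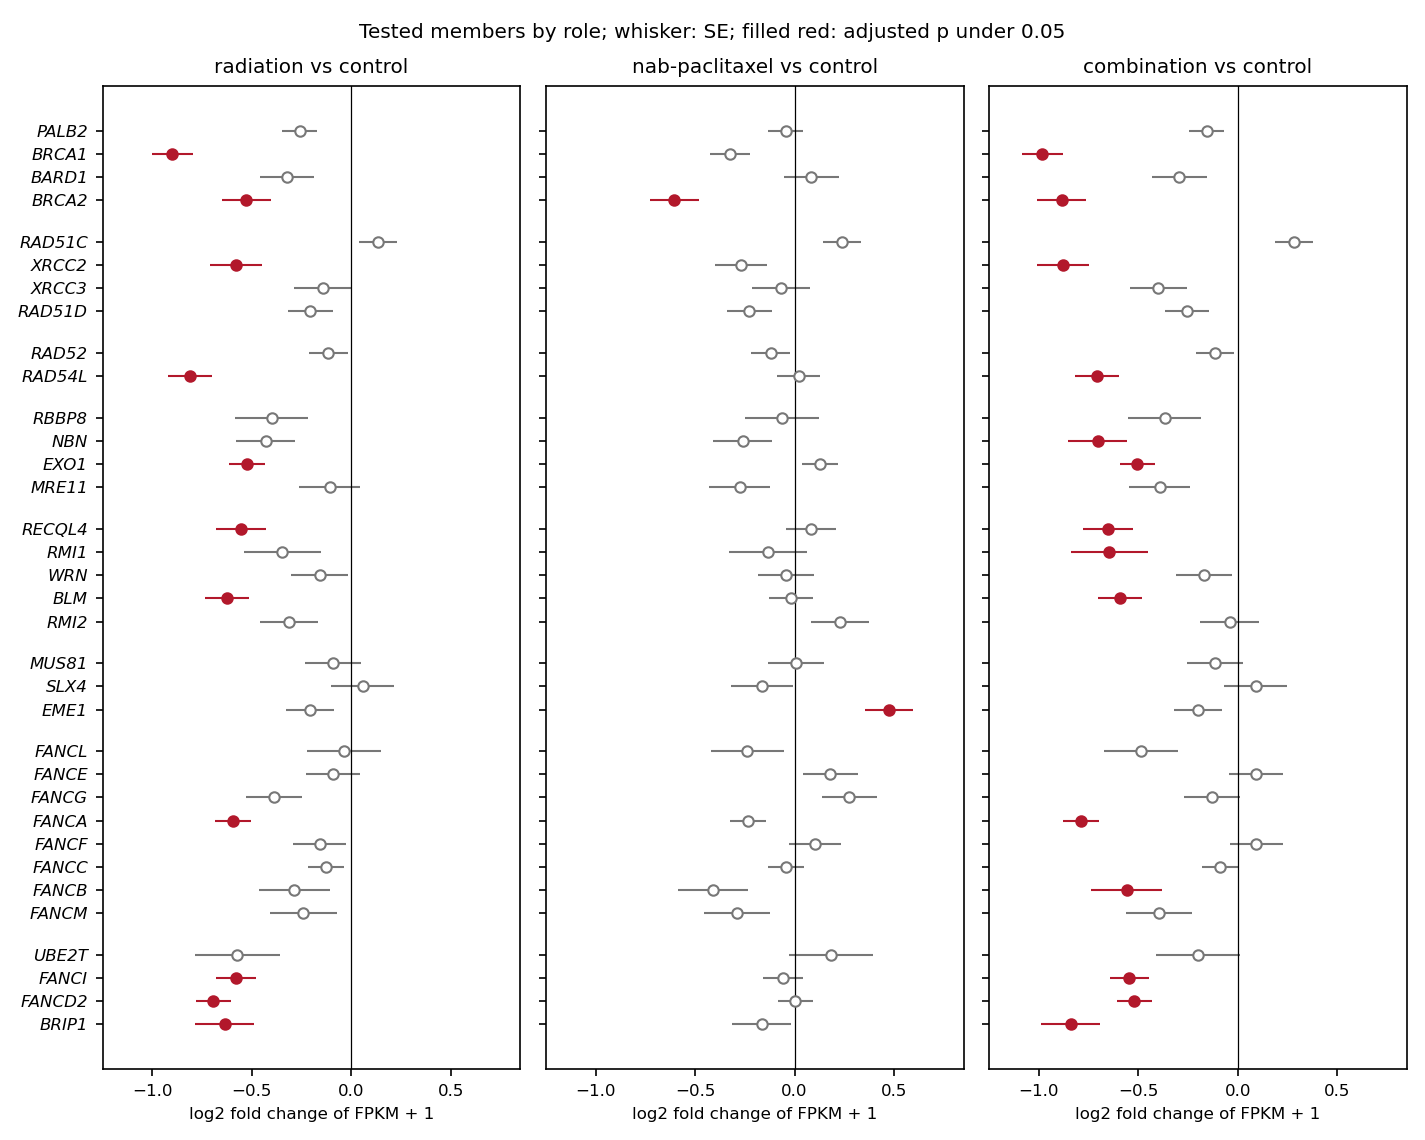
Log2 fold change of FPKM + 1 (x axis) for each of the 34 tested members (y axis, grouped by role) against control, 1 panel each for radiation, nab-paclitaxel and the combination; points are estimates, whiskers standard errors, and filled red points passed an adjusted p of 0.05. Points lean left of 0 in the radiation and combination panels, where 11 and 14 members fell, and scatter around 0 with the drug alone, where BRCA2 fell and EME1 rose.

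Among the recombination mediators BRCA1 and BRCA2 fell, and PALB2 and BARD1 did not pass. In the order of replicates 1, 2 and 3, BRCA1 (chr17:43044295-43170245 in GRCh38, minus strand), the ubiquitin ligase that promotes resection and recruits PALB2, was at 4.46, 4.97 and 4.67 FPKM in control. It was at 2.19, 1.89 and 2.08 with radiation, 3.70, 3.13 and 3.85 with nab-paclitaxel and 1.74, 2.29 and 1.65 in the combination. All 6 irradiated libraries lay below all 6 others, and the drug libraries lay below the controls. Radiation left BRCA1 at 43.7% of the control mean (log2 -0.90 ± 0.10, limma adjusted p = 0.000883) and the combination at 40.3% (-0.98 ± 0.10, adjusted p = 0.000148). With the drug alone its change was -0.32 ± 0.10 (adjusted p = 0.0695), which did not pass.

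BRCA2 (chr13:32315474-32400266), which loads the recombinase onto resected DNA, had the other pattern in this group, with low values under either agent. Its controls were at 2.48, 3.27 and 2.27 FPKM, the radiation libraries at 1.58, 1.46 and 1.55, the drug libraries at 1.41, 1.18 and 1.63, and the combination at 0.866, 1.18 and 0.897. Every treated library lay below every control, and the radiation and drug ranges overlapped. BRCA2 fell by 0.53 ± 0.12 with radiation (limma adjusted p = 0.0281), by 0.60 ± 0.12 with nab-paclitaxel (adjusted p = 0.0159) and by 0.88 ± 0.12 with both (adjusted p = 0.000662). The radiation call was lost when control 1, control 2 or any radiation library was left out (adjusted p = 0.0605 to 0.111) and the drug call without nab-paclitaxel 2 (adjusted p = 0.0515). The radiation call was also lost with the replicate number as a block (adjusted p = 0.0632) and with no filter on the mean level (adjusted p = 0.0712). The scaffold PALB2 stood at -0.26 ± 0.09 with radiation (adjusted p = 0.121). BARD1, the partner of BRCA1, stood at -0.32 ± 0.14 (adjusted p = 0.221), with control 2 at 4.12 FPKM against 2.71 and 2.79 in the other controls.

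Of the 4 tested recombinase paralogs, proteins that help form and stabilise the recombinase filament, only XRCC2 passed against control. XRCC2 was at 3.91, 6.07 and 4.06 FPKM in control, 2.88, 2.64 and 2.73 with radiation, 3.59, 3.54 and 3.80 with nab-paclitaxel and 1.74, 2.18 and 2.26 in the combination. The 4 groups did not overlap. It fell by 0.58 ± 0.13 with radiation (limma adjusted p = 0.0234, lost without any 1 of the radiation libraries, at 0.0705 to 0.0992) and by 0.88 ± 0.13 in the combination (adjusted p = 0.000930). With no filter on the mean level the radiation call was lost too (adjusted p = 0.0683). RAD51C was above the controls in every combination library (4.97 to 5.41 against 3.75 to 4.60 FPKM), at 0.28 ± 0.09 with an adjusted p of 0.0513. It passed as risen with a pseudocount of 0.1, TPM scaling, quantile normalization and voom on the recovered fragments (adjusted p = 0.0250 to 0.0476). It also passed without control 2 or nab-paclitaxel 1 (limma adjusted p = 0.0241 and 0.0189). XRCC3 stood at -0.40 ± 0.14 (adjusted p = 0.0671) and RAD51D at -0.26 ± 0.11 (adjusted p = 0.125) in the combination. By voom both passed as fallen (adjusted p = 0.0429 and 0.0414), and XRCC3 also without control 2 (limma adjusted p = 0.00396). XRCC3 shares 76.7% of its exonic bases with KLC1 on the opposite strand, and whether the counting used strand is not stated.

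RAD54L, the translocase that remodels the joint molecule after strand invasion, also fell with radiation. Its controls were at 3.71, 2.74 and 3.48 FPKM and the drug libraries at 3.03, 3.77 and 3.29. With radiation it was at 1.44, 1.39 and 1.4995 and in the combination at 1.78, 1.39 and 1.72, so that the irradiated and unirradiated libraries did not overlap, while the ranges with and without the drug overlapped within each. RAD54L fell by 0.81 ± 0.11 with radiation (to 43.6% of the control mean, limma adjusted p = 0.00213) and by 0.71 ± 0.11 in the combination (adjusted p = 0.00123). It shares 25.1% of its exonic bases with LRRC41 on the opposite strand, which stood at -0.16 ± 0.07 with radiation (adjusted p = 0.216) and rose by 0.25 ± 0.07 in the combination (adjusted p = 0.0210). RAD52, an annealing protein, was at 3.27 to 4.55 FPKM over all libraries and passed in no comparison.

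Of the tested resection genes EXO1, the nuclease of long-range resection, fell with radiation. It was at 4.49, 4.69 and 4.78 FPKM in control, 3.18, 2.78 and 2.85 with radiation, 5.17, 5.01 and 5.34 with nab-paclitaxel and 2.54, 3.41 and 3.04 in the combination. The drug libraries were all above the controls (0.13 ± 0.09, limma adjusted p = 0.391, which did not pass), and the irradiated ones all below. EXO1 fell by 0.52 ± 0.09 with radiation (adjusted p = 0.00667) and by 0.51 ± 0.09 in the combination (adjusted p = 0.00251). NBN, the regulatory subunit that binds ATM, passed only in the combination among these comparisons. Its values were 15.04, 19.97 and 15.7 FPKM in control, 12.7, 11.2 and 12.7 with radiation, 16.6, 11.9 and 13.3 with the drug and 10.3, 11.5 and 8.16 with both. The radiation libraries were also all below the controls. NBN fell by 0.70 ± 0.15 in the combination (adjusted p = 0.00639), and stood at -0.43 ± 0.15 with radiation (adjusted p = 0.121). RBBP8, which starts resection, and the nuclease MRE11 passed in no comparison; in the combination they stood at -0.37 ± 0.18 and -0.39 ± 0.15.

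Among the helicases and the dissolution complex, BLM and RECQL4 fell with radiation. BLM, the helicase that dissolves double Holliday junctions, was at 3.78, 4.84 and 4.01 FPKM in control, 2.16, 2.48 and 2.48 with radiation, 4.88, 3.57 and 4.01 with nab-paclitaxel and 2.30, 2.54 and 2.50 in the combination. Both irradiated groups lay together below the unirradiated ones. BLM fell by 0.62 ± 0.11 with radiation (limma adjusted p = 0.00725) and by 0.59 ± 0.11 with both (adjusted p = 0.00323). RECQL4, a helicase with a part in replication initiation, was at 16.3, 12.4 and 17.5 FPKM in control, 10.9, 9.79 and 9.47 with radiation, 15.7, 17.2 and 15.6 with the drug and 9.40, 8.16 and 10.6 with both. Control 2 was its lowest control, unlike for most members. RECQL4 fell by 0.55 ± 0.13 with radiation (adjusted p = 0.0245, lost without control 1, control 3 or any radiation library, at 0.0559 to 0.104) and by 0.65 ± 0.13 in the combination (adjusted p = 0.00409). Its radiation call was also lost with TPM scaling (adjusted p = 0.0769) and with no filter on the mean level (adjusted p = 0.0662).

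RMI1 and RMI2 hold the dissolution complex of BLM together. RMI1 was at 8.86, 13.8 and 7.998 FPKM in control, 7.91, 6.999 and 7.99 with radiation, 11.7, 7.07 and 8.78 with nab-paclitaxel and 5.64, 7.07 and 5.42 in the combination. The lowest control and the highest radiation library nearly touched, while the combination lay apart from control. RMI1 fell by 0.64 ± 0.19 in the combination (limma adjusted p = 0.0339), a call lost with the replicate number as a block (adjusted p = 0.0556) and without control 2, combination 1 or combination 3 (adjusted p = 0.0924 to 0.112). With no filter on the mean level it was lost too (adjusted p = 0.103). RMI2 was at 2.45, 3.10 and 2.22 FPKM in control, 1.91, 2.05 and 1.68 with radiation, 4.32, 2.58 and 2.86 with the drug and 2.32, 2.37 and 2.74 with both. It passed only between the single agents, as given below with that comparison. WRN, the Werner syndrome helicase, was at 6.22 to 9.93 FPKM and passed in no comparison.

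The structure nucleases, which cut branched DNA, did not pass with radiation or with the combination against control. EME1, the partner of MUS81, was at 2.12, 1.60 and 2.55 FPKM in control, 1.42, 1.75 and 1.81 with radiation, 3.03, 3.502 and 3.24 with nab-paclitaxel and 1.51, 1.83 and 1.66 in the combination. Only the drug-alone libraries stood out, above all 9 others. EME1 rose by 0.47 ± 0.12 with nab-paclitaxel, to 155.9% of the control mean (limma adjusted p = 0.0351). That call was lost in 8 of the 12 fits that left out 1 library (adjusted p = 0.0535 to 0.0947): without control 1 or 2, radiation 2 or 3, any drug library, or combination 3. It was also lost with the replicate block (adjusted p = 0.0583), TPM scaling (adjusted p = 0.0877) and no filter on the mean level (adjusted p = 0.0908). EME1 shares 16.4% of its exonic bases with the much more abundant LRRC59 (56.5 FPKM) on the opposite strand, which stood at 0.29 ± 0.09 in the same comparison (adjusted p = 0.0745). MUS81 and the scaffold SLX4 were at 1.88 to 3.16 and 1.25 to 2.73 FPKM. MUS81 shares 13.9% of its exonic bases with the much more abundant CFL1 (51.8 FPKM) on the opposite strand.

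In the Fanconi core complex FANCA alone fell with radiation among the 8 tested members. FANCA (chr16:89737549-89816657, minus strand) was at 4.60, 4.53 and 5.01 FPKM in control, 2.88, 2.79 and 2.68 with radiation, 3.601, 4.18 and 3.78 with nab-paclitaxel and 1.93, 2.50 and 2.52 in the combination. The 4 groups did not overlap, in the order control, drug, radiation and both. FANCA fell by 0.59 ± 0.09 with radiation (limma adjusted p = 0.00408) and by 0.79 ± 0.09 with both (adjusted p = 0.000256), and stood at -0.24 ± 0.09 with the drug (adjusted p = 0.126). It shares 23.6% of its exonic bases with ZNF276 on the opposite strand, which stood at -0.21 ± 0.10 with radiation (adjusted p = 0.287) and fell by 0.39 ± 0.10 in the combination (adjusted p = 0.0181). Because strand use is not stated, the part of the shared bases in the FANCA values was not tested.

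FANCB, a scaffold subunit of the core complex, was at 2.31, 2.14 and 2.01 FPKM in control, 2.06, 1.34 and 1.41 with radiation, 1.13, 1.26 and 1.76 with nab-paclitaxel and 1.15, 1.72 and 0.672 in the combination. The drug and combination libraries lay below the controls, and radiation 1 lay within them. FANCB fell by 0.56 ± 0.18 in the combination (limma adjusted p = 0.0406). With the replicate block its adjusted p was 0.0672, and it was 0.0514 to 0.154 without any 1 control, radiation 2 or 3, nab-paclitaxel 2, or combination 1 or 3. With quantile normalization it was 0.0627, and with no filter on the mean level 0.115. FANCG, an adaptor that joins FANCA to the complex, was at 5.18, 3.08 and 4.36 FPKM in control, 2.64, 3.40 and 2.75 with radiation, 4.97, 5.37 and 5.29 with the drug and 3.43, 3.48 and 4.20 with both. Its control libraries spanned most of the range of the other groups, and it did not pass against control (-0.39 ± 0.14 with radiation, adjusted p = 0.139). Without control 2 the radiation value was -0.55 with an adjusted p of 0.0194. The ubiquitin ligase FANCL, the translocase FANCM, and FANCC, FANCE and FANCF passed in no comparison; in the combination they ran from -0.49 ± 0.19 for FANCL to 0.09 ± 0.14 for FANCE and 0.09 ± 0.13 for FANCF.

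Of the 4 genes of the ubiquitination step and its effectors 3 fell with radiation. FANCD2 (chr3:10026414-10101930), 1 of the pair of proteins that the core complex ubiquitinates, was at 3.54, 4.3998 and 3.74 FPKM in control, 1.84, 2.17 and 2.05 with radiation, 3.99, 3.78 and 3.91 with nab-paclitaxel and 2.45, 2.53 and 2.23 in the combination. The drug libraries lay inside the range of the controls, and the combination above the radiation libraries. FANCD2 fell by 0.69 ± 0.09 with radiation, to 51.8% of the control mean (limma adjusted p = 0.00153), and by 0.52 ± 0.09 with both, to 61.8% (adjusted p = 0.00197). Its partner FANCI was at 6.42, 7.69 and 6.45 FPKM in control, 4.02, 4.08 and 4.64 with radiation, 6.74, 6.09 and 6.73 with the drug and 4.03, 5.07 and 4.06 with both. FANCI thus repeated the split of FANCD2 by irradiation, and fell by 0.58 ± 0.10 with radiation (adjusted p = 0.00686) and by 0.54 ± 0.10 in the combination (adjusted p = 0.00312).

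BRIP1 (FANCJ), a helicase that binds BRCA1, was at 2.97, 4.20 and 3.03 FPKM in control, 1.91, 1.59 and 1.94 with radiation, 3.23, 2.49 and 2.99 with nab-paclitaxel and 1.42, 1.93 and 1.05 in the combination. All irradiated libraries lay below all others. BRIP1 fell by 0.64 ± 0.15 with radiation (limma adjusted p = 0.0279, lost without control 2 or any radiation library, at 0.0708 to 0.120) and by 0.84 ± 0.15 in the combination (adjusted p = 0.00251). Its radiation call was also lost with the replicate block (adjusted p = 0.0580) and with no filter on the mean level (adjusted p = 0.0813). UBE2T, the ubiquitin-conjugating enzyme of the pathway and its most abundant member here, was at 16.3, 25.03 and 16.0 FPKM in control, 12.9, 11.4 and 12.5 with radiation, 31.3, 16.6 and 18.8 with the drug and 14.7, 16.8 and 17.1 with both. Control 2 and nab-paclitaxel 1 stood far above their groups. Against control it stood at -0.57 ± 0.21 with radiation (adjusted p = 0.152). Without nab-paclitaxel 1, a library of neither group, that adjusted p was 0.0391.

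**Figure D2:**
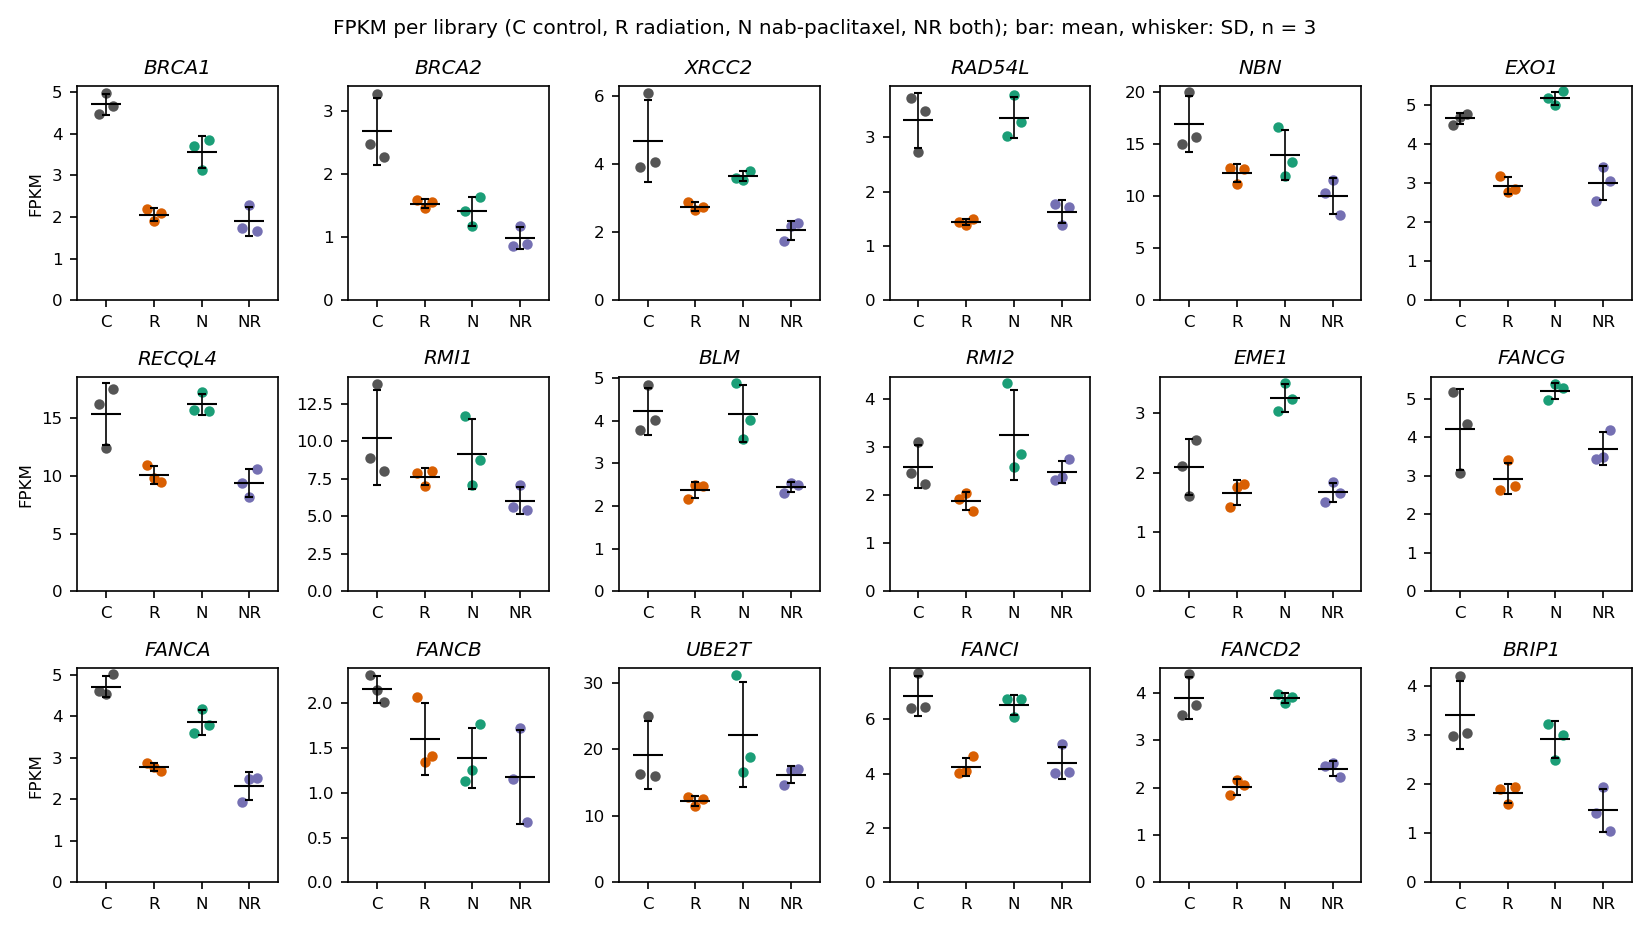
FPKM of each library (y axis, from 0) in the 4 groups (x axis; C control, R radiation, N nab-paclitaxel, NR both) for the members that passed in at least 1 comparison; points are libraries, bars group means and whiskers SDs (n = 3). In BRCA1, RAD54L, BLM and FANCI the R and NR points lie below the C and N points, in BRCA2 the 3 treated groups all lie below control, and in EME1 the N points lie above the rest.

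Of the 11 calls in the comparison of radiation with control, 7 (BRCA1, RAD54L, EXO1, BLM, FANCA, FANCD2 and FANCI) passed in each of the 12 fits that left out 1 library and in the 6 other settings tried. In the combination against control 12 of the 14 did so, all but RMI1 and FANCB. With any 1 radiation library left out the count of members fallen with radiation was 7. Of all tested genes 186 to 200 fell in those fits, against 470 with all libraries.

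The effect of radiation was then read in drug-treated cells, by comparing the combination with nab-paclitaxel. Here 11 members fell and 0 rose, where 2.7% of all tested genes fell and 1.21% rose. This comparison shares no library with that of radiation against control, but both use the same spread per gene, fitted over all 12 libraries. Control 2 and nab-paclitaxel 1, which lie in the 2 baselines, also deviated together (r = 0.46, across genes). The 2 comparisons are thus not fully independent. The combination libraries lay below all drug libraries in 15 members and above them in 0, where 12.3% and 8.66% of all tested genes did so. Of the 11 members called in each, 10 were called in both (90.91% of each list): BRCA1, XRCC2, RAD54L, EXO1, BLM, RECQL4, FANCA, FANCD2, FANCI and BRIP1. Over all genes 807 and 533 were called, 358 of them in both. On the log2(FPKM + 1) scale the largest falls in drug-treated cells were those of RECQL4 (-0.73 ± 0.13, limma adjusted p = 0.00961) and RAD54L (-0.73 ± 0.11, adjusted p = 0.00510). This scale understates members at a few FPKM more than RECQL4, which had a mean of 12.8 FPKM. The order is therefore not one of proportional change. BRCA1 fell by 0.66 ± 0.10 (adjusted p = 0.00578), FANCD2 by 0.52 ± 0.09 (adjusted p = 0.00839) and EXO1 by 0.63 ± 0.09 (adjusted p = 0.00360). EME1 fell here by 0.67 ± 0.12 (adjusted p = 0.0115) and BRCA2 stood at -0.28 ± 0.12 (adjusted p = 0.265). The fold changes of the 34 members in the 2 comparisons correlated with Pearson's r = 0.83 and Spearman's rho = 0.82, against r = 0.58 across the 13609 tested genes; genes are not independent points. With the replicate block the calls of FANCI (adjusted p = 0.0510) and BRIP1 (adjusted p = 0.0634) were lost. With no filter on the mean level those of XRCC2, FANCI and BRIP1 were lost (limma adjusted p = 0.0822, 0.0619 and 0.0943). The calls of XRCC2, BLM, EME1, FANCI and BRIP1 were each lost without at least 1 library, at adjusted p = 0.0511 to 0.121. The count was 7 without combination 1 and 6 without combination 3, where 192 and 134 of all tested genes fell, against 368 with all libraries.

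**Figure D3:**
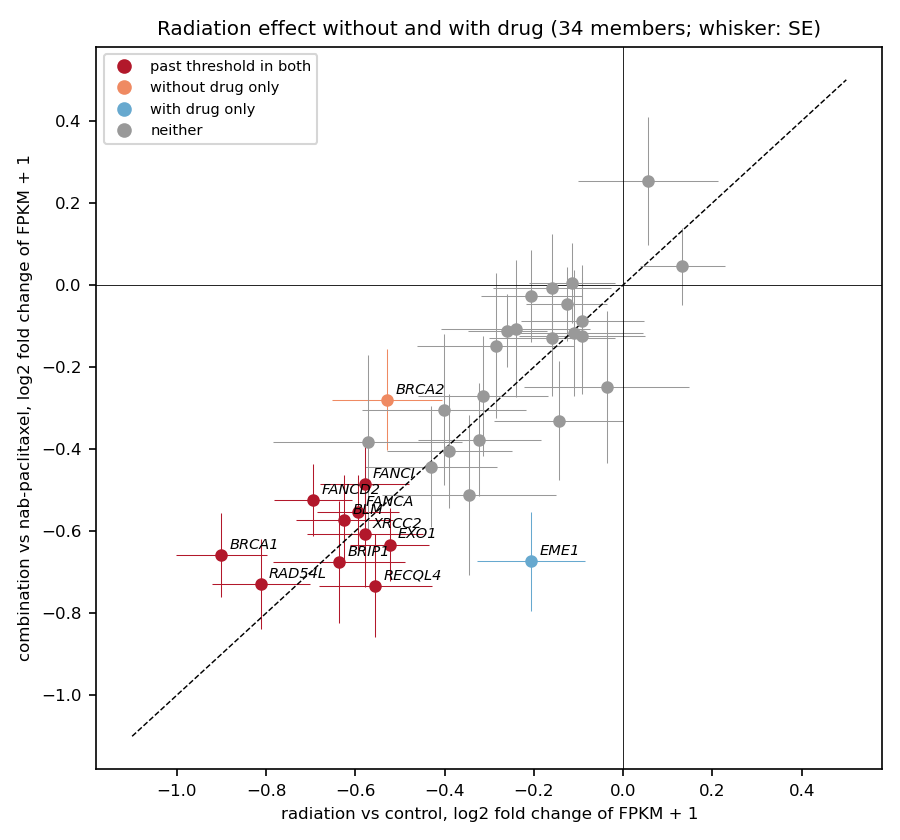
Log2 fold change of FPKM + 1 for radiation against control (x axis) and for the combination against nab-paclitaxel (y axis), 1 point for each of the 34 tested members with standard errors as whiskers. The members called in both comparisons lie at the lower left, and the points follow the diagonal with r = 0.83; EME1 lies below it, at -0.21 without the drug and -0.67 with it.

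Whether the radiation effect differed with the drug was tested by the interaction. None of the 34 members and none of the 13609 genes (0%) passed by limma, and 0 members passed by voom on the recovered fragments. At an unadjusted p under 0.05 there were 1 member and 443 genes. That member was EME1, at -0.47 ± 0.17 (unadjusted p = 0.0184). Interaction estimates of the members ran from -0.47 to 0.25, and the median 95% interval, unadjusted, reached 0.417 to either side. Differences of that size and larger could thus miss the adjusted threshold with 3 libraries a group, as that of EME1 did. Over all genes the smallest limma adjusted p was 0.989.

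Adding nab-paclitaxel to radiation moved no member past the threshold: 0 rose and 0 fell by limma, where 4.81% of all tested genes rose and 2.95% fell. At an unadjusted p under 0.05 there were 3 of the 34 members and 3445 of the 13609 genes. The groups did not overlap in 6 members that were lower and 6 that were higher in the combination, where 16.5% and 23.9% of all tested genes did so. Estimates ran from -0.45 for FANCL to 0.37 for UBE2T, and the median 95% interval reached 0.295 to either side. BRCA2 had the smallest p, at -0.36 ± 0.12 (adjusted p = 0.0994), and voom on the recovered fragments called it, at -0.66 (adjusted p = 0.0323). All 3 combination libraries of BRCA2 were below all 3 radiation libraries. Without control 2 XRCC2 passed (adjusted p = 0.0457). Without the 3 libraries that stood apart, a setting chosen after seeing the data, 10 of 34 members passed, 3 up and 7 down. There 2551 of 13664 tested genes passed up and 1565 down. The members' share was near that of all genes only with both directions pooled. More members passed down than up, and more of all genes passed up than down. RMI2, FANCE and UBE2T rose there, and BRCA2, XRCC2, MRE11, NBN, RMI1, FANCL and BRIP1 fell.

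The single agents were compared directly. With radiation 12 members were lower than with nab-paclitaxel and 0 higher, where 10.6% of all tested genes were called lower and 5.58% higher. In 18 members all radiation libraries lay below all drug libraries, which held for 26.7% of all tested genes, and in 0 above them, which held for 15.8%. RAD54L differed by -0.83 ± 0.11 (limma adjusted p = 0.000978), FANCD2 by -0.70 ± 0.09 (adjusted p = 0.000742) and EXO1 by -0.65 ± 0.09 (adjusted p = 0.00115). BRCA1, BLM, RECQL4, FANCA and FANCI were also lower. Outside the genes that fell against control, EME1 differed by -0.68 ± 0.12 (adjusted p = 0.00437), FANCG by -0.67 ± 0.14 (adjusted p = 0.00993), UBE2T by -0.76 ± 0.21 (adjusted p = 0.0331) and RMI2 by -0.54 ± 0.15 (adjusted p = 0.0284). The UBE2T and RMI2 calls were lost without nab-paclitaxel 1 (adjusted p = 0.0829 and 0.0714) or any 1 radiation library, and that of UBE2T also with the replicate block (adjusted p = 0.0588) and with quantile normalization (adjusted p = 0.0619). The FANCA call (-0.36 ± 0.09, adjusted p = 0.0226) was lost without any 1 radiation library or nab-paclitaxel 2 (adjusted p = 0.0632 to 0.0830) and with TPM scaling (adjusted p = 0.0729). With no filter on the mean level the calls of UBE2T, RMI2 and FANCA were lost too (limma adjusted p = 0.0978, 0.0794 and 0.0505). BRIP1 passed as lower with quantile normalization and voom (adjusted p = 0.0347 and 0.0257). It also passed without control 2, combination 2 or combination 3 (limma adjusted p = 0.0305 to 0.0433). BARD1 passed by voom (adjusted p = 0.0387) and without control 2 (limma adjusted p = 0.0240), and XRCC2 without control 2 (adjusted p = 0.0270). BRCA2, low under either agent, differed by 0.08 ± 0.12 (adjusted p = 0.708).

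Of 45 further recombination and Fanconi genes 38 were tested. With radiation 1 rose and 2 fell, where 2.48% and 3.45% of all tested genes did, and the median was -0.08. TONSL, which protects and repairs replication forks, fell by 0.61 ± 0.11 (limma adjusted p = 0.00759) and MCM8, a helicase of recombination, by 0.38 ± 0.10 (adjusted p = 0.0495). SWI5, a recombinase mediator, rose by 0.49 ± 0.13 (adjusted p = 0.0434). In the combination 3 rose and 8 fell, where 12.2% and 10.6% of all tested genes did, and the median was -0.0054. SWI5 rose by 1.05 ± 0.13 (adjusted p = 0.000305), CENPX, a subunit of the FANCM-binding fold, by 0.45 ± 0.13 (adjusted p = 0.0285, its groups overlapping) and BABAM1, of the BRCA1-A complex, by 0.40 ± 0.12 (adjusted p = 0.0288). MCM8 fell by 0.46 ± 0.10 (adjusted p = 0.00760), TONSL by 0.49 ± 0.11 (adjusted p = 0.00783), RAD51AP1, which stimulates strand pairing, by 1.00 ± 0.22 (adjusted p = 0.00867) and FIGNL1, which regulates the recombinase, by 0.58 ± 0.13 (adjusted p = 0.00989).

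End joining is the route that rejoins breaks without a template. Of 18 tested genes 0 rose and 1 fell with radiation, where 2.48% and 3.45% of all tested genes did, and 1 rose and 2 fell in the combination, where 12.2% and 10.6% did. The medians were -0.12 and -0.13, and these counts are near the shares of all genes. With radiation 16 of the 18 were below 0, against 7294 of all 13609 tested genes. Summed over the list the level was 306.6 to 324.2 FPKM in control and 277.8 to 280.1 in radiation. It was 365.3 to 400.4 in nab-paclitaxel and 337.6 to 345.8 in the combination. The counts for S phase and mitosis genes were larger. With radiation 32 of 39 tested DNA replication genes fell and 0 rose (median -0.57), and 20 of 24 mitosis genes fell and 0 rose (median -0.74). With the drug 6 replication genes rose and 0 fell (median 0.17), and 11 mitosis genes rose and 2 fell (median 0.37). Among all tested genes 5.41% rose and 3.41% fell with the drug. In the combination 26 replication genes fell and 1 rose (median -0.48), and 12 mitosis genes fell and 0 rose (median -0.41).

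Summed over the replication list the level was 512.2 to 517.6 FPKM in control, 343.8 to 345.6 in radiation, 581.1 to 669.3 in nab-paclitaxel and 404.5 to 416.2 in the combination. Summed over the mitosis list it was 249.4 to 282.9, 144.3 to 146.3, 313.3 to 379.7 and 193.8 to 206.3 FPKM in the same order. Both sums were lowest with radiation and higher in the combination, whereas the ranges of the member sums in these groups overlapped. The replication and mitosis genes thus moved with the members between irradiated and unirradiated cells; their part in the members' values was not tested.

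**Figure D4:**
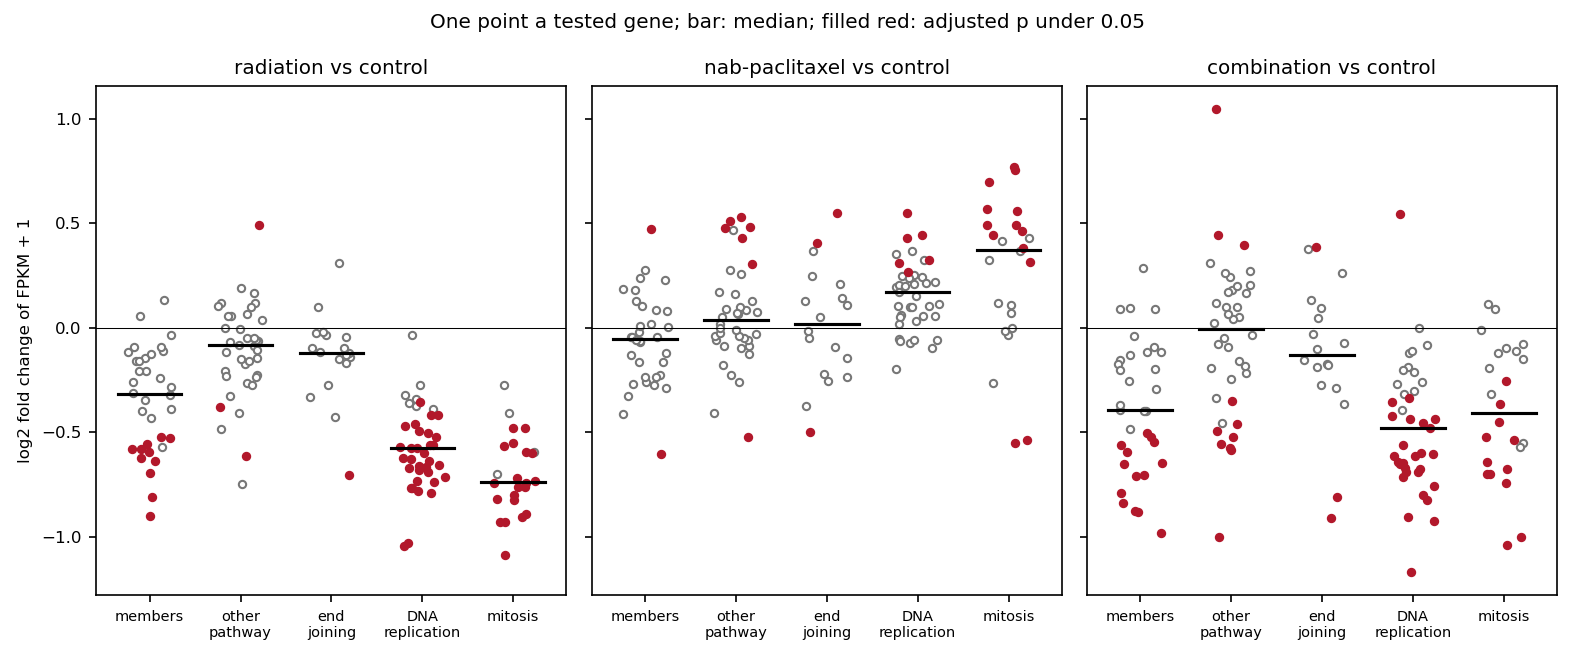
Log2 fold change of FPKM + 1 (y axis) for every tested gene of 5 lists (x axis: members, other pathway genes, end joining, DNA replication, mitosis) against control, 1 panel each for radiation, nab-paclitaxel and the combination; points are genes, bars medians, and filled red points passed an adjusted p of 0.05. With radiation the medians are -0.32 for the members, -0.08 and -0.12 for the other pathway and end joining genes, and -0.57 and -0.74 for replication and mitosis. This scale understates the change of genes at a few FPKM, as most members are, so medians of lists at unlike levels are not on a par.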

How the data were processed

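Values are FPKM in a table that the authors deposited, with 1 column per library and the gene lengths they used. Per the submitters' processing notes the build is hg38. How reads were aligned and counted, whether strand was used and how gene length was made is not given in the sources used here. Member coordinates equal those of GENCODE 29 for all 37 genes. In that annotation 9 members share exonic bases with another gene at a mean of at least 1 FPKM. Those not described above are FANCL (18.7%, VRK2), FANCI (5.9%, POLG), MRE11 (2.93%, ANKRD49) and BRCA1 (1.31%, AC060780.1). FPKM times length was a whole multiple of 1 step per library for 100% of values (within 0.05), which gave fragment numbers for voom. The step is not set by the library's own total.

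Groups came from the labels, which name biological replicates without saying that cultures were separate, so p-values measure the spread between these libraries. The 13609 genes whose mean over 12 libraries reached 1 FPKM were fitted on log2(FPKM + 1) with limma 3.58.1 (R 4.3.3), with a mean-variance trend and 1 spread for the 4 groups (8 residual and 3.39 prior degrees of freedom). Tests were two-sided, with Benjamini-Hochberg adjustment within each contrast and a threshold of 0.05. The script was tested on simulated data. No replicate block was used in the reported fits. Same-numbered control and combination libraries deviated together (r = 0.23, 0.54 and 0.17), those of the other group pairs did not in all 3 numbers, so blocked values stand beside the calls of combination against control that they change. Alternatives were a pseudocount of 0.1, no filter, TPM scaling, quantile normalization, the block, voom and leaving out each library.

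The members and lists were chosen with earlier results of these data known. Library values are given for members past the threshold in any contrast. Of the other pathway genes up to 4 per direction with the smallest p are named. Promoters are printed for the 4 members with the smallest p in radiation against control, using the RefSeq window that holds the most GENCODE 29 coding transcript starts.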

Additional observations from a re-analysis of the deposited data

How the results depend on the processing

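No fold change of a member that passed reversed under any alternative run. For radiation against control no filter gave 7 members past the threshold in place of 11, where 301 of 38818 genes fell. It gave 8 in place of 11 for the combination against nab-paclitaxel, where 183 genes fell. Between the single agents it gave 9 in place of 12, where 884 genes were lower with radiation. For nab-paclitaxel against control TPM scaling, no filter, the replicate block and leaving out control 2, nab-paclitaxel 1 and combination 2 together each gave 1 in place of 2. Of all tested genes 346 to 1190 rose and 233 to 644 fell in those fits. For the combination against radiation voom gave 1, where 701 of all tested genes rose and 477 fell, in place of 0. Leaving out those 3 libraries (chosen after seeing the data) gave 10 in place of 0. Of all tested genes 2551 rose and 1565 fell there, of 13664. Leaving out 1 library gave 7 to 12 for radiation, 0 to 3 for nab-paclitaxel (0 without nab-paclitaxel 2) and 12 to 15 for the combination against control. It gave 0 to 1 for the combination against radiation (1 without control 2), 6 to 12 against nab-paclitaxel, 9 to 15 between the single agents and 0 for the interaction. In these fits 186 to 787 of all tested genes fell with radiation. With nab-paclitaxel 334 to 723 rose and 186 to 458 fell. In the combination against radiation 133 to 1206 rose and 82 to 677 fell. In the combination against control 935 to 1833 genes fell and 1018 to 2100 rose. Against nab-paclitaxel 134 to 507 fell in the combination, and between the single agents 631 to 1854 were lower with radiation.

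With the replicate block the counts were 9 for radiation, 1 for nab-paclitaxel and 12 for the combination against control, 9 for the combination against nab-paclitaxel, 11 between the single agents and 0 for the others. With the block 306 of all tested genes fell with radiation and 1233 in the combination against control. With nab-paclitaxel 435 rose and 266 fell, and in the combination against radiation 369 rose and 237 fell. In the combination against nab-paclitaxel 213 fell, and 1144 were lower with radiation than with the drug. Of single calls 8 were lost with the block and 0 were gained. In the combination against control voom called 1 member as risen and 16 as fallen, where 1717 of all 13609 tested genes rose and 1554 fell. TPM scaling also gave 1 and 16, where 1318 genes rose and 1458 fell. RAD51C rose in both. Voom added falls of RAD51D and XRCC3, and TPM scaling added falls of MRE11 and FANCL. Depth limits FANCB most, with 41 to 132 fragments per library. The edgeR test on recovered fragments was not run; voom was run in its place.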

Other observations

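Nab-paclitaxel alone moved genes of repair outside the members. Of the 38 tested further recombination and Fanconi genes 6 rose and 1 fell, where 5.41% of all tested genes rose and 3.41% fell. RPA2 and RPA1, subunits of the single-strand binding complex, rose by 0.48 ± 0.09 (limma adjusted p = 0.0124) and 0.30 ± 0.07 (adjusted p = 0.0204). Of the 18 tested end joining genes XRCC6 (Ku70) rose by 0.55 ± 0.08 (adjusted p = 0.00582) and PARP1 by 0.41 ± 0.09 (adjusted p = 0.0246), while RIF1, which restrains resection, fell by 0.50 ± 0.14 (adjusted p = 0.0464). These genes were named after their values were seen. POLQ, the polymerase of microhomology-mediated joining, was the only end joining gene called with radiation (-0.71 ± 0.12, adjusted p = 0.00667), and it fell by 0.91 ± 0.12 in the combination (adjusted p = 0.000510).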
